A study of Mus musculus with 18 samples.

Results

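Lung RNA of mice given a medium oral dose of a defined hydrocarbon mixture was compared with lung RNA of mice given the vehicle alone. The samples were chosen by their labels: 5 mice at 25 mg BaP equivalents/kg-bw/day (mice 11 to 15) and 5 mice gavaged with olive oil (mice 1 to 5), 10 of the 18 arrays of the series. Another 4 mice received the low dose of 12.5 and 4 the high dose of 50 mg BaP equivalents/kg-bw/day. They are used for the spread in the statistical model and, near the end, as neighbours of the medium dose. All were male Muta™Mouse animals of about 12 weeks, a transgenic strain that carries a bacterial reporter gene for mutation assays, so the vehicle mice carried the transgene too. Gavage was given on 28 consecutive days and lungs were taken 72 hours after the last dose. The mixture held 4 polycyclic aromatic hydrocarbons: benzo[a]pyrene (BaP), benz[a]anthracene, benzo[b]fluoranthene and chrysene.

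Each lung RNA was labelled with Cy5 and hybridised to its own array against Cy3-labelled Universal Mouse Reference RNA, a pool from 11 mouse cell lines. A level in the text is therefore the log2 ratio of a mouse's lung RNA to that pool, and a log2 fold change is the mean of the medium-dose mice minus the mean of the vehicle mice. Probes were called where the adjusted p of the limma fit was 0.05 or less and the fold change at least 1.5. Levels are not comparable between genes. Of all non-control probes, 55681 were tested, and 27235 of them were named with 20660 gene symbols, each gene being represented by its brightest probe.

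Polycyclic aromatic hydrocarbons enter cells and bind the aryl hydrocarbon receptor (AHR), a transcription factor that switches on cytochrome P450 enzymes. These enzymes and epoxide hydrolase turn the hydrocarbons into diol epoxides that attach to DNA. Bulky DNA adducts stall replication and transcription, and the tumour suppressor p53 then activates genes that arrest the cell cycle, repair DNA or kill the cell. The circadian clock is a separate loop that runs in lung cells, in which ARNTL and CLOCK drive the Per, Cry and Rev-erb genes whose products repress them.

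The arrays showed the labelled tissue. The log2 ratio of Sftpc, the surfactant protein of alveolar type 2 cells, was 6.84 to 7.58 in vehicle mice and 6.27 to 7.42 in medium-dose mice. Ager of alveolar type 1 cells was at 5.58 to 6.00 and 5.47 to 5.70, Scgb1a1 of club cells at 7.2 to 8.10 and 7.22 to 7.66, and Foxj1 of ciliated cells at 3.39 to 4.15 and 3.36 to 3.90. Heart muscle markers differed widely between mice, and Myl7, an atrial myosin light chain, ranged over 0.24 to 4.34 in vehicle mice and -0.10 to 3.80 in medium-dose mice. The share of probes well above background in Cy5 ran from 53.8% to 62.1% on these 10 arrays, and the lowest correlation between any pair of them was 0.937 (Pearson r over probes, a description). The arrays came from 3 slides, each with vehicle and medium-dose mice: mice 1, 2, 11 and 12 on slide 1, mice 3, 4, 13 and 14 on slide 2, and mice 5 and 15 on slide 3. Within a slide, each dose group always had the same column position, so position and dose cannot be told apart.

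At the medium dose 155 probes were higher and 249 lower than in vehicle mice, which is 0.278% and 0.447% of the probes tested. Rises made up 38.4% of these calls. With median centring in place of the intensity-dependent loess, 28 probes were higher and 4 lower, and 87.5% of the calls were rises. Counted by gene, 104 were higher (0.503%) and 89 lower (0.431%). In 150 of these 193 genes the medium-dose and vehicle mice did not overlap, and 5.96% of all genes had groups that did not overlap. The calls rest on the same mice and favour such genes, so this is a description only. The largest rises reached a log2 fold change of 2.78 and the largest falls -1.70, and the median over all genes was 0.02 with 54.9% of genes above 0. An unadjusted p under 0.05 was reached by 8503 of the 55681 probes. In the fit limited to probes well above background it was 7107 of 28495. Counts of unadjusted p by list below are to be set beside these shares. The lists were chosen with earlier results of these data known, so the shares called in them are descriptions only.

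**Figure D1:**
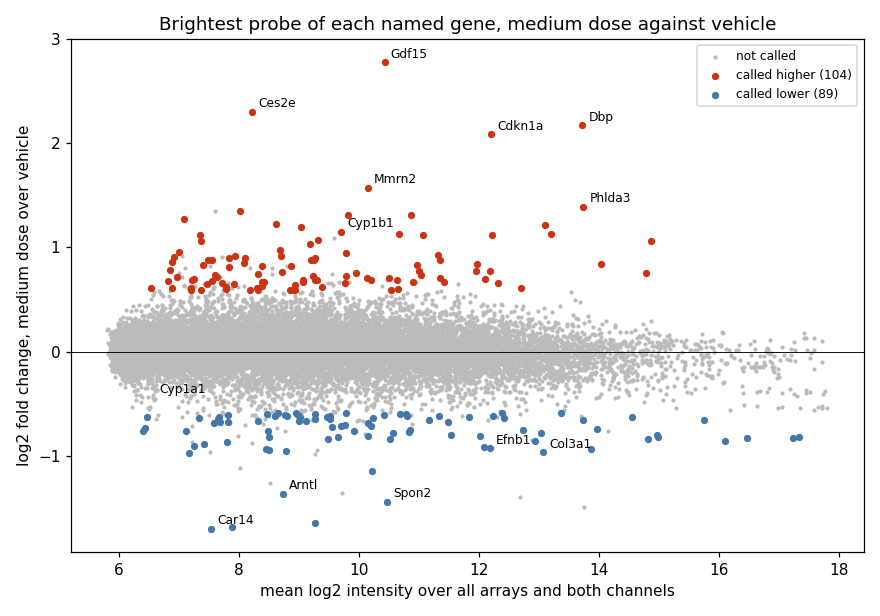
Each point is the brightest probe of a named gene, with its mean log2 intensity over all arrays and both channels on the horizontal axis and its log2 fold change (medium dose over vehicle) on the vertical axis; red and blue points are the 104 genes called higher and the 89 called lower. The rises of Gdf15, Ces2e, Dbp and Cdkn1a stand above all others, and called falls extend to the brightest probes.

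Of 24 measured p53 targets listed under arrest and the damage response (arrest targets below), 11 rose and none was called lower. Over all genes 0.503% were called higher. The list also holds targets with other roles, such as the enzyme gene Dglucy and the epoxide hydrolase gene Ephx1. Members of the list made up 6 of the 12 largest rises, and the median log2 fold change of the list was 0.50. Gdf15, a secreted stress cytokine, had the largest rise of any gene. Its log2 ratio was -1.79, -2.37, -1.66, -1.78 and -2.24 in the vehicle mice 1 to 5 and 1.13, 1.1, 0.78, 0.97 and 0.08 in the medium-dose mice 11 to 15. Every medium-dose mouse lay above every vehicle mouse, and mouse 15 was the lowest of the dosed animals. The log2 fold change was 2.78 (standard error, SE, 0.17; limma adjusted p = 2.14e-09), a 6.87-fold rise.

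Cdkn1a, which encodes the cyclin-dependent kinase inhibitor p21 that halts the cell cycle, stood at -0.51, -1.07, -0.74, -0.45 and -0.83 in vehicle mice and at 1.27, 1.48, 1.03, 1.55 and 1.5 in medium-dose mice. The groups were far apart, with the lowest dosed mouse more than a log2 unit above the highest vehicle mouse. The log2 fold change was 2.09 (SE 0.12, limma adjusted p = 1.82e-09), and a second, dimmer Cdkn1a probe gave 2.63. Phlda3, an inhibitor of the survival kinase AKT, had ratios of 0.02 to 0.47 in vehicle mice and 1.41 to 1.81 in dosed mice, a log2 fold change of 1.39 (limma adjusted p = 2.15e-08). Its values hardly varied by slide, at 1.41, 1.39 and 1.36. Ccng1, cyclin G1, rose by 1.31, Dglucy, a mitochondrial enzyme of D-glutamate metabolism, by 1.31, and Aen, a nuclease that p53 induces, by 1.21 on the log2 scale. None of these overlapped between groups. Trp53inp1 (1.13), Ephx1 (1.06), Zmat3 (0.90), Plk2 (0.69) and Ckap2 (0.66) also rose, though Ckap2 was well above background in 2 of 5 vehicle mice and was at 0.58 without medium-dose mouse 13, just below the fold limit. In the vehicle mice Zmat3, an RNA-binding protein, was nearly constant at -1.32, -1.32, -1.32, -1.31 and -1.51, and it reached -0.59, -0.24, -0.60, -0.25 and -0.60 at the medium dose.

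The other 13 arrest targets were not called. Sesn2, a stress-responsive regulator of mTOR, had a log2 fold change of 0.58 (limma adjusted p = 0.00502), just below the fold limit, and Plk3 of 0.41 (limma adjusted p = 0.0305). Btg2, an antiproliferative gene, was at 0.03 (limma adjusted p = 0.941). Fbxw7, a ubiquitin ligase component, was at -0.49 (limma adjusted p = 0.00287), also within the fold limit.

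Of 15 p53 targets that promote cell death 1 rose, against 0.503% of all genes called higher, with a list median of 0.16. That gene was Bax, whose protein permeabilises mitochondria, with log2 ratios of -2.18, -1.71, -1.83, -2.23 and -1.81 in vehicle mice and -0.34, -0.97, -0.33, -1.29 and -1.26 in dosed mice. The dosed mice were spread widely but all lay above the vehicle mice, and the log2 fold change was 1.12 (SE 0.19, limma adjusted p = 0.00201). Pmaip1, which encodes NOXA, was at 0.57 (limma adjusted p = 0.00413), Bbc3, which encodes PUMA, at 0.18 (limma adjusted p = 0.341), and the death receptor Fas at -0.11 (limma adjusted p = 0.76). With median centring none of the 15, Bax included, was called and their median was 0.19. Whether the call of 1 gene against 11 marks a difference between both lists was not tested. Both counts depend on how genes were assigned to the lists. Called genes of the arrest list such as Phlda3, Dglucy and Ephx1 have roles other than arrest.

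Among the regulators of p53 itself, Mdm2, the ubiquitin ligase that degrades p53, rose by 0.61 (SE 0.08, limma adjusted p = 0.000108). Its ratios ran from -0.11 to 0.17 in vehicle mice and from 0.41 to 0.71 in dosed mice. Without vehicle mouse 2, 3 or 4 or medium-dose mouse 14 its log2 fold change was 0.58, which is below the fold limit, with a limma adjusted p of at most 0.000629. Trp53 mRNA had a log2 fold change of -0.49 and Mdm4, a second negative regulator, of -0.53 (limma adjusted p = 0.0264 and 0.0246), both smaller than the fold limit. The 5 medium-dose mice had Trp53 ratios of -2.02, -1.71, -1.42, -1.49 and -1.60, all below the vehicle range of -1.36 to -0.99. With median centring, 6 of the 24 arrest targets were called and their median was 0.59.

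Of 48 measured DNA repair genes in 3 lists 1 was called (2.08%), against 0.934% of all genes called in either direction. None of 17 nucleotide excision repair genes, which remove bulky adducts, was called in the limma fit, although 9 had an unadjusted p under 0.05 and 14 of them lay above 0. Such a p was found for 8503 of all 55681 probes, and for 7107 of 28495 in the fit limited to probes well above background. Ercc3, a helicase subunit of TFIIH, was at 0.43 (limma adjusted p = 0.00557), and Xpa, the damage verifier, at 0.24 (limma adjusted p = 0.0647). The p53 target Ddb2, a damage sensor, was at 0.24 (limma adjusted p = 0.117). Of 10 translesion synthesis genes, Polk rose by 0.67 (SE 0.11, limma adjusted p = 0.00186). It encodes polymerase kappa, which copies past adducts of benzo[a]pyrene. Rev1, its scaffold partner, stood at 0.56 (limma adjusted p = 0.000654). None of 21 double-strand break and crosslink repair genes was called, with 5 at an unadjusted p under 0.05 and the largest change at Fanca (0.52, limma adjusted p = 0.25). The 12 genes of the integrated stress response, another pathway that induces Gdf15, had no call, 5 unadjusted p under 0.05 and a median of -0.01.

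**Figure D2:**
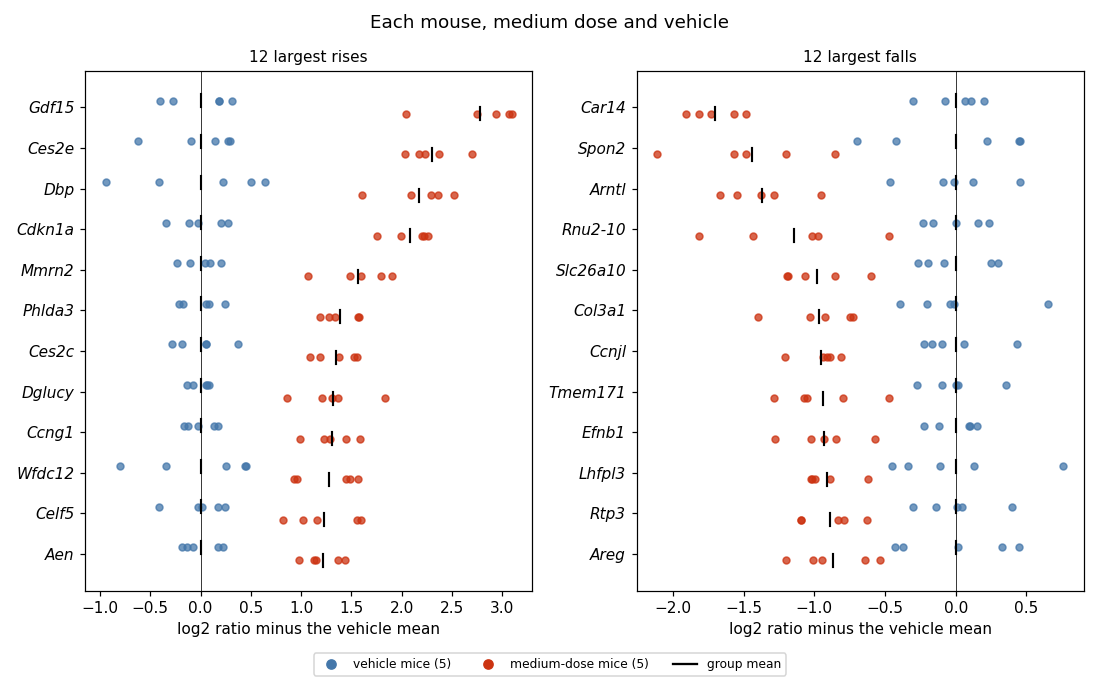
Log2 ratio of each mouse minus the vehicle mean for the 12 genes with the largest rises (left) and the 12 with the largest falls (right); blue points are the 5 vehicle mice, red points the 5 medium-dose mice and black bars the group means. In all 24 genes the groups do not overlap, which was a condition for choosing them.

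Circadian clock genes were called on both arms of the loop. Of 10 clock repressors, 5 rose and none was called lower, against 0.503% of all genes called higher. All 10 lay above 0, against 54.9% of all genes, and the median log2 fold change was 0.62. Of the 3 PAR bZIP factors, transcription factors that carry the rhythm to output genes, 2 rose. Dbp, the best known of them, had log2 ratios of -0.70, 0.88, -0.17, 0.74 and 0.47 in vehicle mice and of 1.85, 2.60, 2.76, 2.34 and 2.54 in medium-dose mice. The vehicle mice were widely spread, and all dosed mice were still higher. The log2 fold change was 2.17 (SE 0.26, limma adjusted p = 5.85e-05), and a second bright Dbp probe gave 2.27. Tef rose by 0.84 (limma adjusted p = 0.0029). Hlf was at 0.74 (limma adjusted p = 0.0725), with overlapping groups.

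Per1, a core repressor, stood at -0.04, 0.56, -0.03, 0.64 and 0.55 in vehicle mice and at 1.17, 1.29, 1.04, 1.27 and 1.14 in dosed mice. The dosed mice were tightly grouped, the vehicle mice fell into a lower pair and a higher trio, and the log2 fold change was 0.84 (SE 0.15, limma adjusted p = 0.00291). Per2 (0.85), Per3 (0.91), and Nr1d1 (0.95) and Nr1d2 (1.03), the genes of the Rev-erb receptors that silence Arntl, rose in the same way. Their limma adjusted p-values were 0.00241, 0.000385, 0.00447 and 0.000108. The cryptochromes, the partners of the Per proteins, did not pass the test, with Cry1 at 0.07 (limma adjusted p = 0.82) and Cry2 at 0.28 (limma adjusted p = 0.0578).

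On the activating arm, Arntl, the partner of CLOCK, was at 0.61, 0.14, 0.07, -0.31 and 0.28 in vehicle mice and at -0.79, -1.51, -1.39, -1.13 and -1.22 in dosed mice. Its log2 fold change was -1.37 (SE 0.17, limma adjusted p = 7.05e-05). It was the 1 gene called among 6 activators, whose median was -0.37, against 0.431% of all genes called lower. Npas2, a paralogue of Clock, was at -0.47 (limma adjusted p = 0.0311) and Clock at -0.31 (limma adjusted p = 0.242). Nfil3, a repressor that competes with the PAR bZIP factors, fell by 0.81 on the log2 scale (limma adjusted p = 0.000175), and its groups did not overlap. Of 12 rhythmic genes outside the core loop 3 rose, against 0.503% of all genes called higher. They were Tspan4, a tetraspanin (1.12), Coq10b, a coenzyme Q binding protein (0.59), and Wee1, the mitotic inhibitor kinase (0.59). Leaving out 1 mouse put Coq10b at 0.55 to 0.56 (vehicle mouse 3 or 4 or medium-dose mouse 12) and Wee1 at 0.52 to 0.58 (vehicle mouse 1, 4 or 5 or medium-dose mouse 12 or 15), below the fold limit. Of 14 glucocorticoid receptor targets only Per1, which also belongs to the clock list, was called, against 0.934% of all genes called in either direction. The hour at which each mouse was dissected was not given in the sources used here, and its part in these values was not tested. With median centring, 1 gene of the 13 repressors and PAR bZIP factors was called, while the medians were 0.66 for the repressors and 0.99 for the PAR bZIP factors, against 0.62 and 0.84 with loess.

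Per1 and Tef, both called higher, hold the E-box CACGTG, the letters that ARNTL and CLOCK bind, in the 250 bases before an annotated start, while Per3 holds the D-box TTATGTAA that PAR bZIP factors and NFIL3 bind. These windows are shown because the 3 genes were called and carry the letters that other clock proteins bind. The sequences come from RefSeq on GRCm38.p6, with the motif in capitals, for Per1 from chr11:69098738-69098833 (plus strand), for Tef from chr15:81802501-81802596 (plus strand) and for Per3 from chr4:151044771-151044915 (minus strand).
Per1: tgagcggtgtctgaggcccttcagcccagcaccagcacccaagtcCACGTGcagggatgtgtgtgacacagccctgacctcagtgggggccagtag
Tef: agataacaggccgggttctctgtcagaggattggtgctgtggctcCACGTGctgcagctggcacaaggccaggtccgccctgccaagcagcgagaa
Per3: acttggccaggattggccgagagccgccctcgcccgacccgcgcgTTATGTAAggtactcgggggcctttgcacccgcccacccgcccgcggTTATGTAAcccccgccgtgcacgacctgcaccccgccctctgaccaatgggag
The Per1 E-box lies 160 bases before the start, the Tef E-box 121 bases and the D-boxes of Per3 197 and 150 bases. A second start of Tef also holds an E-box. Searched on both strands, CACGTG occurred in 5 of the 11 repressor and PAR bZIP genes with a window (Per1, Cry1, Bhlhe41, Ciart and Tef) and in 6.86% of all genes with one. Of these 5, Cry1, Bhlhe41 and Ciart were not called, and neither was Clock. The other called genes, Per2, Per3, Nr1d1, Nr1d2 and Dbp, were not among the 5. The D-box, searched as TTATGTAA or TTACGTAA, occurred in 1 of the 11 and in 1.1% of all genes. A match is a description of the letters and not of binding.

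**Figure D3:**
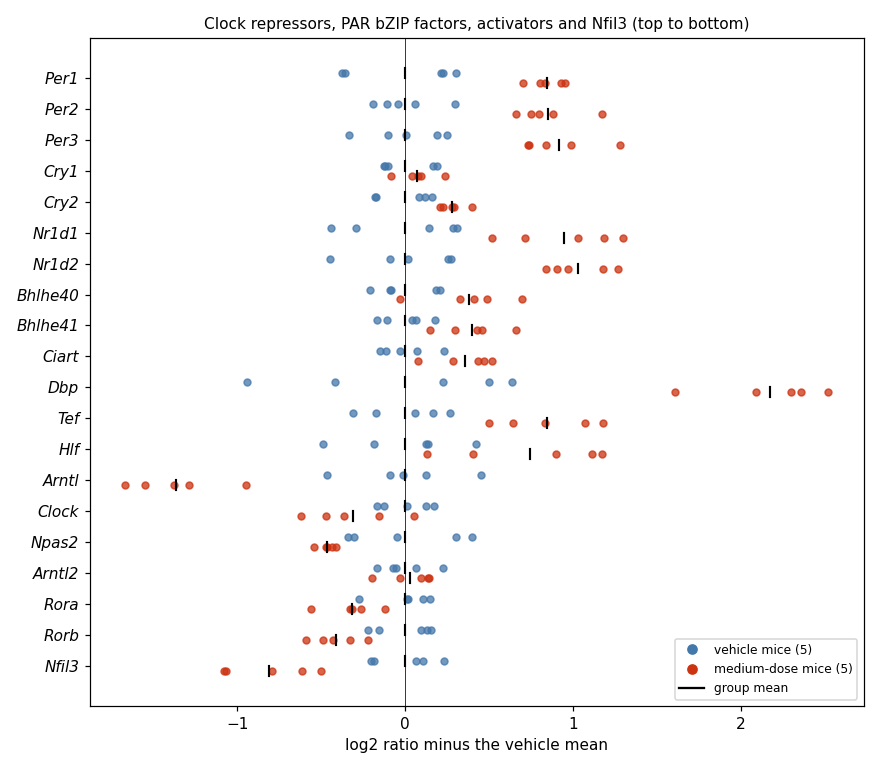
Log2 ratio of each mouse minus the vehicle mean for, from the top, 10 clock repressors, 3 PAR bZIP factors, 6 activators and Nfil3; blue points are the 5 vehicle mice, red points the 5 medium-dose mice and black bars the group means. Dbp stands far to the right, Arntl and Nfil3 lie to the left, and Cry1 and Arntl2 are near 0.

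The AHR battery, the classical response to such hydrocarbons, was called in part. Of 10 measured genes 2 rose, against 0.503% of all genes, and the list median was 0.00. Cyp1b1, an enzyme that activates these hydrocarbons, was at -1.60, -1.55, -1.45, -2.25 and -1.65 in vehicle mice and at -0.71, -0.72, -0.69, -0.32 and -0.32 in medium-dose mice. Vehicle mouse 4 was well below its group, and all dosed mice lay above the vehicle mice. The log2 fold change was 1.15 (SE 0.15, limma adjusted p = 0.000147), though with median centring its adjusted p was 0.184. Ahrr, the receptor's own repressor, had ratios of -0.76 to -0.60 in vehicle mice and 0.12 to 0.44 in dosed mice and rose by 0.95 (limma adjusted p = 2.44e-07), being well above background in 1 of 5 vehicle mice and in 5 of 5 dosed mice. Cyp1a1, the gene most often used as an AHR marker, gave 1.59, 0.82, 0.60, 0.37 and 1.65 in vehicle mice and 0.07, 1.02, 0.46, 0.74 and 0.51 in dosed mice. The groups overlapped, the log2 fold change was -0.44 (SE 0.31, limma adjusted p = 0.575), and the probe was well above background in 2 of 5 dosed mice. The exact permutation test over mice gave p = 0.214 (two-sided). Nqo1, a quinone reductase, was at 0.48 (limma adjusted p = 0.114).

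Ahrr is shown because it was called and holds the AHR core motif TNGCGTG within the 250 bases before its start. Searched on both strands, these letters occurred in 1 of the 9 AHR genes with a window, in 4 of the 11 clock repressors and PAR bZIP genes, in 2 of 21 p53 arrest targets and in 4.76% of all genes. They were not found for Cyp1b1, the other called gene of the battery. The Ahrr window was read from RefSeq on GRCm38.p6 at chr13:74292332-74292405 (minus strand), with the motif in capitals 22 bases before the start.
Ahrr: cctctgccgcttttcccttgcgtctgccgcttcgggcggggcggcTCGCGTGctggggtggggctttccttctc

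Enzymes that handle xenobiotics showed their largest change in carboxylesterases, which hydrolyse esters and amides. 3 of 17 measured members rose, all of the Ces2 cluster, against 0.503% of all genes. The list was chosen with earlier results of these data known, so this share is a description only. Ces2e was at 0.61, 0.23, -0.30, 0.47 and 0.60 in vehicle mice and at 2.56, 3.02, 2.36, 2.69 and 2.49 in dosed mice. The separation between groups exceeded the whole range of either, with a log2 fold change of 2.30 (SE 0.17, limma adjusted p = 6.49e-08). Ces2c rose by 1.35 and Ces2b by 1.06 (limma adjusted p = 2.64e-05 and 0.00609). Ces2a was at -0.10 and Ces2g at 0.21, and Ces1g at 0.43 had the largest change outside the cluster, none of which was called. A second Ces2c probe that was well above background gave 0.65. With the mean of all probes of each gene, Ces2e was at 1.3 and Ces2c at 0.78. The members are close in sequence, the probe sequences were not used here, and how far the probes tell them apart was not tested. Ephx1, microsomal epoxide hydrolase, which acts in the route to hydrocarbon diol epoxides and is counted above as a p53 target, was at 1.21, 1.37, 0.83, 1.17 and 1.45 in vehicle mice and at 2.25, 2.38, 2.38, 2.24 and 2.09 in dosed mice. It was the 1 call among 33 conjugation and reductase enzymes (limma adjusted p = 4.83e-06). None of 16 other lung monooxygenases and none of 14 NRF2 targets was called in the limma fit, with 4 and 2 at an unadjusted p under 0.05. Car14, a membrane carbonic anhydrase, had the largest fall of all named genes, from 2.75, 2.88, 2.38, 2.61 and 2.79 to 0.95, 1.12, 1.20, 0.78 and 0.87. All dosed mice were more than a log2 unit below all vehicle mice, and the log2 fold change was -1.70 (SE 0.10, limma adjusted p = 3.18e-09). Of the other measured carbonic anhydrases Car3 was at -1.12 (limma adjusted p = 0.446).

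B cell markers gave 5 calls and markers of T and natural killer cells none, and the difference between these lists was not tested. In whole lung RNA, more or fewer cells of a type and more or less RNA per cell cannot be told apart. Of 19 B cell markers 18 lay above 0, against 54.9% of all genes, with a median of 0.40. Called higher were 5 of them, against 0.503% of all genes. They were Fcer2a, the low-affinity IgE receptor (0.81), the surface marker Ms4a1 (0.70), the antigen receptor subunit Cd79b (0.70), the coactivator Pou2af1 (0.70) and the homing receptor Cxcr5 (0.64), with limma adjusted p from 0.00559 to 0.0463. Ms4a1 had log2 ratios of -0.02, 0.23, -0.67, -0.81 and -0.16 in vehicle mice and of -0.06, 0.73, 0.46, 0.59 and 0.36 in dosed mice, and these overlapped. The median of the list was 0.06 on slide 1, 0.89 on slide 2 and 0.20 on slide 3. The number of called B cell markers varied with the libraries: 8 without vehicle mouse 2, 1 without vehicle mouse 3 or 4, 1 without medium-dose mouse 12 or 14 and 3 without medium-dose mouse 13 or 15. Fcer2a was called in all 10 of these fits and Cxcr5 in 2 of them. The count was 1 with the scanner software's ratios or with only the vehicle and medium-dose arrays, and 0 with median centring, where the median of the list was 0.44.

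Genes that B cells share with other antigen-presenting cells gave 2 calls among 11 MHC class II genes, H2-Oa (0.92, limma adjusted p = 0.00298) and H2-Ob (0.65, limma adjusted p = 0.0373), which encode the DO heterodimer that limits peptide loading. Over all genes 0.503% were called higher. H2-Ob did not pass the test without vehicle mouse 3, 4 or 5 or medium-dose mouse 12, 14 or 15, with an adjusted p of up to 0.105. The classical chains H2-Ab1 and H2-Aa were at -0.24 and 0.15. Of 8 plasma cell markers, Jchain, which joins IgM and IgA polymers, fell by 0.66 and Xbp1, the secretory factor, by 0.63 on the log2 scale (limma adjusted p = 0.00679 and 0.000612), while Mzb1 and Sdc1 stood at 0.04 and 0.17. The share called lower over all genes was 0.431%. Jchain was at -0.58 without vehicle mouse 5 and Xbp1 at -0.55 without vehicle mouse 2, both within the fold limit. None of 20 T cell markers and none of 20 natural killer markers was called in the limma fit, with 5 and 6 at an unadjusted p under 0.05 and medians of 0.13 and -0.14. Over all 55681 probes 8503 had an unadjusted p under 0.05, and 7107 of 28495 in the fit limited to probes well above background. Gzma, a granzyme of cytotoxic lymphocytes, was at 5.46, 4.95, 4.63, 3.75 and 5.07 in vehicle mice and 4.76, 4.17, 2.98, 3.07 and 4.12 in dosed mice, a log2 fold change of -0.95 that did not pass the test (limma adjusted p = 0.209). Srgn, the proteoglycan that packs granules, rose by 0.78 (limma adjusted p = 0.000267).

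Of 14 measured CXC chemokines 2 were called and of 16 CC chemokines 1, all lower, against 0.431% of all genes called lower. Ccl5, a chemokine made by T and natural killer cells, had ratios of -0.02, -0.35, -0.35, -1.17 and -0.27 in vehicle mice and -1.22, -1.31, -1.47, -1.57 and -1.14 in dosed mice. Vehicle mouse 4 was the lowest of its group and overlapped the dosed range, and the log2 fold change was -0.92 (SE 0.18, limma adjusted p = 0.00595). Cxcl5, a neutrophil attractant made by epithelium, was at -2.35, -0.39, -0.02, -0.95 and -0.71 in vehicle mice and at -0.64, -3.83, -3.39, -2.46 and -2.36 in dosed mice, with a log2 fold change of -1.65 (SE 0.46, limma adjusted p = 0.0486) and wide spread in both groups. It was called in 2 of the 10 fits that each left out 1 mouse, those without vehicle mouse 1 or medium-dose mouse 11, and its adjusted p elsewhere reached 0.141. Cxcl13, a B cell attractant, fell by 0.63 (limma adjusted p = 0.0224), being well above background in 3 of 5 dosed mice, and its call was lost without vehicle mouse 1 or 3 or medium-dose mouse 12 or 13 (log2 fold change -0.58 to -0.50). Neutrophil markers gave 1 call in 13, against 0.503% of all genes called higher. It was Mmp8 (0.78, limma adjusted p = 0.0496), called in 2 of the same 10 fits. Those were the fits without vehicle mouse 1 or medium-dose mouse 13, and its limma adjusted p reached 0.141 in the others. Alveolar macrophage markers gave none in 14, with 1 at an unadjusted p under 0.05. The 18 interferon-stimulated genes had no call, 3 unadjusted p under 0.05 and a median of -0.19, which was 0.07 without vehicle mouse 3.

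**Figure D4:**
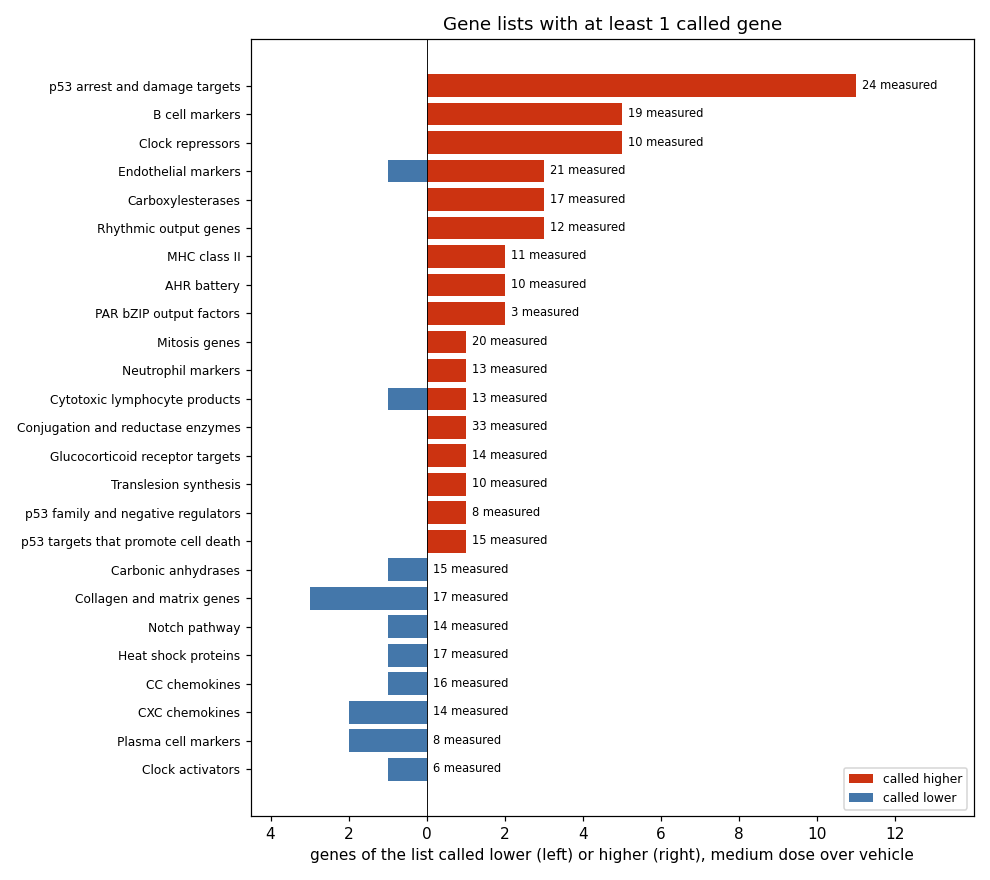
Number of genes called lower (blue, to the left) or higher (red, to the right) at the medium dose in each gene list with at least 1 call and more than 1 measured gene; the text beside each bar gives how many genes of the list were measured. The p53 arrest targets lead with 11 of 24, and collagens hold the most falls with 3 of 17.

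Fibrillar collagens, the main products of fibroblasts, were lower. Of 17 collagen and matrix genes 3 fell and none was called higher, against 0.431% of all genes called lower, and the median was -0.33. The fibrillar collagen Col3a1 was at -0.98, -1.17, -0.12, -0.81 and -0.79 in vehicle mice and -1.81, -2.17, -1.5, -1.52 and -1.70 in dosed mice. Vehicle mouse 3 was far above the other vehicle mice, but even the lowest vehicle mouse was above every dosed mouse, and the log2 fold change was -0.97 (SE 0.19, limma adjusted p = 0.00627). Col1a1 and Col1a2, the chains of type I collagen, had log2 fold changes of -0.86 and -0.65 (limma adjusted p = 0.00176 and 0.0115), and Col1a2 was at -0.58, below the fold limit, without vehicle mouse 3 or medium-dose mouse 12. The basement membrane collagen Col4a1 was at 0.03 and fibronectin, Fn1, at 0.02, and neither was called. With median centring none of the 17 was called and the median was -0.16. Spon2, a matrix protein with roles in innate immunity, had the second largest fall among genes whose groups did not overlap (-1.45, SE 0.26, limma adjusted p = 0.00305), with ratios of -1.40 to -0.25 in vehicle mice and -2.82 to -1.56 in dosed mice.

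Of 17 heat shock proteins only Hspa1a, the inducible HSP70, was called, against 0.431% of all genes called lower. Of the 17, 2 lay above 0, against 54.9% of all genes, and the median was -0.27. With median centring none was called, 7 lay above 0 and the median was -0.04. Hspa1a was at 1.96, 3.43, 0.28, 2.81 and 1.24 in vehicle mice and at 0.41, 0.45, 0.07, -0.14 and 0.49 in dosed mice. The vehicle mice covered more than 3 log2 units, and vehicle mouse 3 lay within the dosed range (log2 fold change -1.69, SE 0.46, limma adjusted p = 0.0463). It was called in 2 of the 10 fits that each left out 1 mouse, those without vehicle mouse 3 or 5, and its adjusted p reached 0.133 without vehicle mouse 2. Its neighbour Hspa1b had no named probe.

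Endothelial genes moved in both directions. Mmrn2, an endothelial matrix glycoprotein, was at 5.20, 5.05, 4.91, 5.36 and 5.24 in vehicle mice and 6.74, 6.95, 6.63, 7.06 and 6.22 in dosed mice, a log2 fold change of 1.57 (SE 0.18, limma adjusted p = 3.94e-05). Medium-dose mouse 15 was the lowest of its group. Pecam1, the adhesion molecule CD31, rose by 0.69 and Emcn, a sialomucin of the endothelial surface, by 0.60, while Ednrb, an endothelin receptor, fell by 0.68 (limma adjusted p = 0.000968, 0.00431 and 0.0311). Pecam1 was at 0.58 without vehicle mouse 3, and Emcn at 0.54 to 0.58 without vehicle mouse 2 or 3 or medium-dose mouse 11 or 12, both under the fold limit. Ednrb did not pass the test without vehicle mouse 2, 4 or 5 or medium-dose mouse 11, 14 or 15, with an adjusted p of up to 0.0952. The median over 21 endothelial markers was -0.12, but 0.06 with scaling between arrays. Notch1, a receptor of the Notch pathway, fell by 0.61 (limma adjusted p = 0.0326), but not without vehicle mouse 1, 2, 3 or 4 or medium-dose mouse 11 or 15, where its adjusted p reached 0.0934. The Notch ligand Dll4 stood at 0.50 and the Notch target Hey1 at 0.49, within the fold limit.

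Of 44 measured mitosis and replication genes 1 was called (2.27%), against 0.934% of all genes. All 20 mitosis genes lay above 0, against 54.9% of all genes, with a median of 0.23, but the groups overlapped. Relative to the vehicle mean, the list mean was -0.11 to 0.22 in vehicle mice and 0.14 to 0.55 in dosed mice. The survivin gene Birc5 was the 1 called (0.66, limma adjusted p = 0.0134), though it was at 0.55 without medium-dose mouse 13. The proliferation marker Mki67 was at 0.43 (limma adjusted p = 0.165). None of 24 replication genes was called, with 9 at an unadjusted p under 0.05 and Rrm2, a subunit of ribonucleotide reductase, at 0.53 (limma adjusted p = 0.0228).

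Markers of the lung epithelium gave no call in the limma fit. The medians were -0.25 over 11 alveolar type 2 markers, -0.16 over 9 alveolar type 1 markers, -0.24 over 11 club cell markers and -0.03 over 16 ciliated cell markers. Of these 7, 3, 1 and 0 had an unadjusted p under 0.05. With median centring the medians, in the same order, were -0.05, 0.04, -0.12 and 0.03. The alveolar type 1 median was 0.06 with scaling between arrays. Abca3, the lipid transporter of type 2 cells, was at -0.35 (limma adjusted p = 0.0264). Heart and fat tissue gave values that differed between mice more than between groups: the mean of 12 cardiomyocyte markers varied over -1.43 to 1.20 in vehicle mice and -1.35 to 0.70 in dosed mice, relative to the vehicle mean. Cfd, adipsin of fat cells, ranged over 3.38 to 5.99 in vehicle mice and 0.93 to 5.68 in dosed mice (limma adjusted p = 0.446). The part of such tissue in the other results was not tested. No member was called either among immediate early genes (3 of 16 at an unadjusted p under 0.05), PPAR targets (7 of 19), cholesterol synthesis genes (2 of 20), angiogenic ligands and receptors (2 of 15), and markers of smooth muscle (1 of 7), mast cells (1 of 5), platelets (2 of 7) and erythroid cells (1 of 10). Over all probes the count was 8503 of 55681, and in the fit limited to probes well above background it was 7107 of 28495.

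Some of the largest changes lay outside the lists. Wfdc12, a protease inhibitor of the WAP family, rose by 1.28 and Celf5, an RNA-binding protein, by 1.23 (limma adjusted p = 0.00225 and 0.000237). Celf5 was measured by 2 further probes at or near background, which gave 0.29 and 0.03. Among the falls were Rnu2-10, a U2 small nuclear RNA (-1.14), Slc26a10 of the anion transporter family (-0.98), the cyclin-like gene Ccnjl (-0.95), Tmem171 (-0.94), the guidance ligand Efnb1 (-0.93), Lhfpl3 (-0.91), Rtp3 (-0.89) and the epidermal growth factor receptor ligand Areg (-0.87). Slc26a10 was well above background in 2 of 5 dosed mice and stood at -2.45 with the scanner software's ratios, where Celf5 was at 2.19, Ccnjl at -1.51 and Lhfpl3 at -1.51. Areg went from -0.02, 0.43, 0.86, 0.74 and 0.04 in vehicle mice to -0.13, -0.79, -0.60, -0.24 and -0.54 in dosed mice, and the nearest mice of both groups were close together. For each of the 12 rises and 12 falls, the exact permutation test over mice gave 0.00794, the smallest p that 5 against 5 allows (two-sided), which the choice of genes with separate groups fixed.

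The called falls differed from the rises in the probes that carried them. Named RefSeq transcripts made up 83.2% of the higher and 50.6% of the lower calls, against 48.9% of all probes. Probes with no accession gave 40 of the 249 lower calls and 1 of the 155 higher calls and are 4.93% of all probes. Intergenic regions gave 16.5% of the lower and 7.74% of the higher calls and are 29.1% of all probes. Lower calls sat on brighter probes, with a median log2 intensity of 10.2 against 8.71 for the higher calls and 6.63 over all probes. An intensity of 12 was exceeded by 35.3% of the lower and 9.68% of the higher calls, and by 6.35% of all probes. Where a called gene had another bright probe, 17 of 17 such probes shared the sign of the rise, with a median of 0.65. For falls 29 of 39 shared the sign, with a median of -0.19, and 19 of the 39 lay within 0.2 of 0. The part of probe brightness in the falls was not tested.

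The medium dose was then set beside its neighbours. No probe differed between the high and medium dose in the limma fit (0% of those tested, with 2084 at an unadjusted p under 0.05), and none between the medium and low dose (0%, with 2764). The smallest adjusted p was 0.132 and 0.232. Without medium-dose mouse 13, 1 probe differed between the medium and low dose. In order of dose, the log2 fold change of Cdkn1a over vehicle was 1.39, 2.09 and 2.47, and the step from low to medium was 0.69 (SE 0.13, limma adjusted p = 0.25). Gdf15 gave 2.05, 2.78 and 2.88, and Ahrr 0.69, 0.95 and 1.45. Dbp gave 1.81, 2.17 and 2.22, and Arntl -1.04, -1.37 and -1.59. Cyp1a1 was at -0.32 and -0.44 at the lower doses and at 1.07 at the high dose, a step of 1.52 from medium to high (SE 0.33, limma adjusted p = 0.81). The number of arrest targets called against the same vehicle mice was 8, 11 and 12 of 24, with list medians of 0.31, 0.50 and 0.61. Over all 55681 probes, 50, 404 and 670 were called in the same order. The low and high dose groups had 4 mice each and the medium dose group 5, which also bears on such counts. For the clock repressors the medians were 0.43, 0.62 and 0.53. These comparisons share the vehicle mice.

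**Figure D5:**
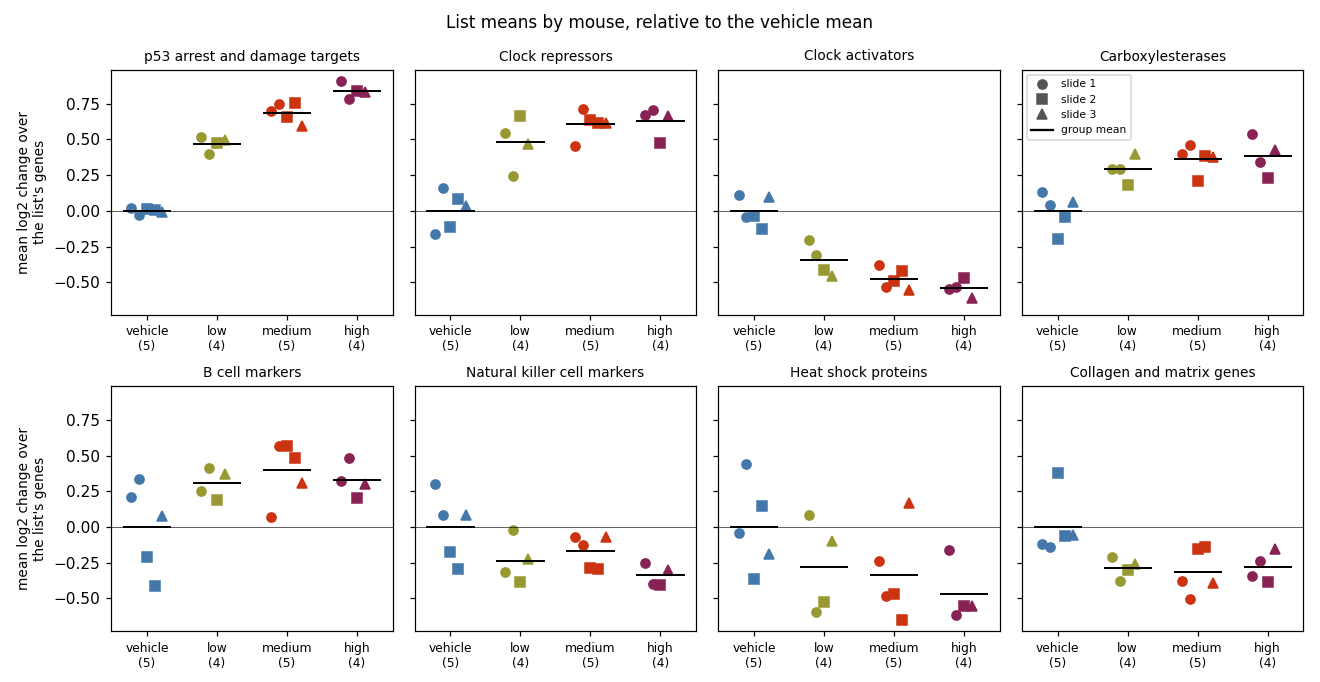
Mean over each list's genes of the log2 ratio minus the vehicle mean, for each mouse of the vehicle, low, medium and high dose groups (5, 4, 5 and 4 mice); symbols mark the 3 slides and black bars the group means. Medium-dose mice lie at 0.59 to 0.75 for the p53 arrest targets, all above the vehicle range of -0.03 to 0.02, whereas for B cell markers and heat shock proteins the vehicle and medium-dose mice overlap.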

How the data were processed

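The authors deposited, for each array, the scanner software's median signal intensity of both channels per spot (Feature Extraction 11.0.1.1 per the file headers), without background subtraction, and the software's own log10 ratio. They also deposited a table of log2 ratios normalized within arrays, which was used as an alternative. No column of the authors' own comparisons was used.

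From the intensities, log2 ratios of Cy5 over Cy3 were normalized by loess within each array (R 4.3.3, limma 3.58.1), with control and outlier spots given no weight, and spots of one probe were averaged. Outlier spots, 229 to 307 on each of these arrays, were left out. The 18 arrays of 4 groups were fitted in 1 linear model with empirical Bayes moderation, with Benjamini-Hochberg adjustment over 55681 probes. Limma's test stands in for the MAANOVA test of the study's methods, which was not run. The fit was also run on simulated ratios with independent noise for each probe. These held no slide or intensity effect, so the run cannot bear on the choice of normalization. Probes were named by accession through a RefSeq table of GRCm38.p6, used for names only. A probe is well above background by the scanner software's own flag.

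The genes named are the 12 largest rises and 12 largest falls among called genes with separate groups, Cyp1a1 and Cyp1b1, called members of the gene lists with up to 4 others of large change, and defining markers. A few further list members that were not called, such as Btg2, Fas, Cry1 and Col4a1, were added with their values known. The lists were written from general knowledge, and samples and lists were chosen with earlier results of these data known. Of 699 genes in 51 lists, 681 had a named probe; 1 further gene is not reported here. Lists were described by counts and medians, without a test. Precision is set by the number of arrays. As alternatives, median centring, normexp background correction (offset 50), the authors' table, the scanner software's ratios, scaling between arrays and quantile-normalized Cy5 replaced the loess ratios; slide entered as a block; probes near background, the other doses, the fold limit or each mouse in turn were left out; and the probes of a gene were averaged.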

Additional observations from a re-analysis of the deposited data

Results flagged for a closer look

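A mouse far from the other 4 of its group was looked for in 68 groups of 5 mice, and 2 were found, where chance gives about 1 in 20. Vehicle mouse 4 had a log2 ratio of -2.25 for Cyp1b1, while the other vehicle mice lay between -1.65 and -1.45. Vehicle mouse 3 had a mean log2 change of 0.38 over the collagen and matrix genes, while the other vehicle mice lay between -0.14 and -0.06 relative to the vehicle mean. Without this mouse 2 genes of that list were called lower, and 3 with it. The cause of these values was not tested.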

How the results depend on the processing

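No named gene of the 24 largest rises and falls changed direction under any alternative run, nor did Cyp1a1 or Cyp1b1. Among list medians above 0.1 in size, those of 7 lists changed sign under some alternative: endothelial (0.06 with scaling between arrays), alveolar type 1 (0.04 with median centring), MHC class II (-0.02 with the scanner software's ratios), cholesterol synthesis, erythroid, cardiomyocyte and interferon-stimulated genes. The numbers of called probes were 312 higher and 384 lower with the scanner software's ratios, 28 and 4 with median centring in place of loess, and 915 and 1054 without a fold change limit. Rises made up 38.4% of the calls with loess and 87.5% with median centring. Median centring also left 6 called p53 arrest targets, 1 called gene of the clock repressors and PAR bZIP factors, 0 B cell markers and 0 collagen and matrix genes, while the list medians were 0.59, 0.66 (repressors), 0.99 (PAR bZIP), 0.44 and -0.16. The count of B cell markers was 1 with the scanner software's ratios and 1 with only the vehicle and medium-dose arrays, and it ranged from 1 to 8 as each mouse was left out. The count of probes between the medium and low dose ranged from 0 to 1. Of the 24 genes with the largest rises and falls, median centring took 2 rises (Dglucy and Wfdc12) and 10 falls (all but Car14 and Arntl) below the threshold, the scanner software's ratios took Wfdc12 and Rtp3, and the mean of all probes took Celf5 (0.52). None of the 24 was lost as each mouse was left out. Of the 56 called genes of the lists, 35 were called in every fit that left out 1 mouse, and 13 with median centring. The cause of these changes was not tested. Values moved by over 1.5 times for Slc26a10, Celf5, Ccnjl, Lhfpl3 and Cyp1a1 (-1.57) with the scanner software's ratios, for Ces2e, Ces2c and Celf5 with the mean of all probes, and for Cyp1a1 without vehicle mouse 5 (-0.28). Weak signals limit Cyp1a1 and Slc26a10, each well above background in 2 of 5 dosed mice, Ahrr and Ckap2 (1 and 2 of 5 vehicle mice) and Cxcl13 (3 of 5 dosed mice). With slide as a block, 170 probes were higher and 272 lower. Mice could not be paired by number, because the groups share no mouse numbers.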
